A study of Mus musculus with 12 samples.

Results

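Small structured RNA genes were examined in a list of RNA regions recovered by PAR-CLIP from mouse neural stem cells. A gene was a member when the midpoint of a cluster, a region of piled-up reads, lay inside it on either strand. The GENCODE M21 annotation had to class the gene as snRNA, snoRNA, scaRNA or misc_RNA, and the mitochondrial genome was left out. Of 3505 such genes, 25 had a cluster (0.713%), against 3.50% of all 55499 annotated nuclear genes by the same rule. The rule itself defines these members, and the genes differ in length (a mean of 113 bases for snRNA genes and 48820 for protein-coding genes), so nothing is read from that difference. The members held 38 of the 4762 clusters of the list and 2870 reads, 0.518% of the sum.

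The study had 12 libraries in 3 groups of 4, from female C57BL/6 neural stem cells made from E14.5 embryos. PAR-CLIP feeds living cells the uridine analogue 4-thiouridine, here at 100 µM for 24 hours per the labels' protocols, joins labelled RNA to bound protein with light of 365 nm (0.15 J/cm2 here), and sequences the RNA that comes down with the protein. The groups were Smchd1GFP/GFP cells, which carry a GFP tag on both copies of the chromatin protein Smchd1; Smchd1GFP/GFP cells titled as not crosslinked, although their treatment protocol states irradiation; and untagged Smchd1+/+ cells with crosslinking. All 3 groups received 4-thiouridine per the protocols, and the labels do not say which libraries came from separate embryos. The list has 1 read count per cluster and none per library, and which libraries entered it is not stated. No group could therefore be set against another, no value has a replicate error, and every value below describes the list without a background.

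The genes of this set make short RNAs that work as folded molecules and not as templates for protein. U1 and U2 are the RNA cores of spliceosome particles: U1 pairs with the 5′ splice site of an intron and U2 with its branch site, and each carries a ring of Sm proteins. 7SL is the scaffold of the signal recognition particle, which brings ribosomes making secreted proteins to the endoplasmic reticulum. 7SK holds the elongation factor P-TEFb in an inactive complex. These RNAs are abundant in most cells, and mammalian genomes carry many full and partial copies of their genes. snoRNAs and scaRNAs guide chemical changes of ribosomal and spliceosomal RNA, and Y and vault RNAs are small cytoplasmic RNAs bound by Ro and vault proteins.

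The hits fell on 4 RNAs. U1 had 11 genes with 20 clusters, U2 had 6 genes with 7 clusters, 7SL had 3 genes with 5 clusters and 7SK had 3 genes with 4 clusters. The other 2 genes, Gm23853 and Gm27694, could be aligned to no named small RNA and had 1 cluster each. No cluster midpoint lay in the 1507 snoRNA genes, the 51 scaRNA genes, the 774 genes alike to U6, the 45 alike to U7, the 17 Y RNA genes, the 10 U5 genes, the 5 U11 genes, the 4 U12 genes or the 2 vault RNA genes. The lowest count in the list was 2 reads and no threshold for calling a cluster was found in the labels, so RNA below it could not be seen. U4, U4atac and U6atac had no named gene to align to and fall among the 863 genes in no named group.

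U1 clusters are shown first because the same stretches of RNA recur at gene after gene. Below is the RNA of Rnu1a1, a U1 gene of chromosome 11 (GRCm38, chr11:87422867-87423030, plus strand), and that of Gm22317, an equal U1 gene of chromosome 12 (chr12:54738459-54738622, minus strand). Both are given 5′ to 3′ in DNA letters from GENCODE M21, with the bases under a cluster in capitals.
Rnu1a1, cluster on the strand of the gene: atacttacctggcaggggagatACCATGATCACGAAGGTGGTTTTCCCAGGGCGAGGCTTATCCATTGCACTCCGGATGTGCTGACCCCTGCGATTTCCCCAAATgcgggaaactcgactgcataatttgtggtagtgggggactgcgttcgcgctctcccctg
Rnu1a1, cluster on the opposite strand: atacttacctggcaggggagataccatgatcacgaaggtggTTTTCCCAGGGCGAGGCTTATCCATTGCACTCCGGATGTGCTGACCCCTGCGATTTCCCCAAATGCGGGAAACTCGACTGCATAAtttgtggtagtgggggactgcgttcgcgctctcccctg
Gm22317, cluster on the opposite strand: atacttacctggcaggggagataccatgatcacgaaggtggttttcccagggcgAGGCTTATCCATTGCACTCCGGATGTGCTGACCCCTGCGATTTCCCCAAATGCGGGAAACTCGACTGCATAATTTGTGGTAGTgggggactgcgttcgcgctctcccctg

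The cluster on the strand of the gene ran from base 23 to base 105 of the 164 bases of U1 and had 23 reads. It had the same sequence and the same 23 reads at 9 genes, among them Rnu1a1. The first 22 bases, which hold the stretch ACTTACCTG (bases 3 to 11) that pairs with 5′ splice sites, lay outside every U1 cluster. On the opposite strand there were 2 versions. At the 6 U1 genes on the plus strand of the genome (Rnu1a1, Gm22068, Gm22634, Gm23804, Gm26444 and Gm23238) the cluster spanned bases 42 to 126 with 82 reads, and at the 5 on the minus strand (Gm22317, Gm24305, Gm25679, Gm24924 and Gm26244) it spanned bases 55 to 137 with 81 reads. All 11 genes hold the reverse complement of both sequences in full. The version listed thus followed the strand of the genome on which the copy lies and not the RNA sequence. Only the second version spanned the whole Sm site (searched as ATTTNTGG, bases 126 to 133), which the first reached with its last base. Both versions list the complement of the bases they span. On either strand ATTTNTGG occurred in 2.04% of all clusters of the list and ACTTACCTG in 0.0210%, which is 1 cluster.

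Of 127 annotated genes alike to U1, the 11 with a cluster were those that hold at least 1 of these sequences, or its reverse complement, exactly. Of these 11, 7 had the same transcript as Rnu1a1, letter for letter, Rnu1a1 included. Gm24305 and Gm23238 had a cluster on the opposite strand alone, and neither holds in full the sequence that the other 9 list on their own strand. Gm23238 differed from Rnu1a1 at 4 bases (97.6% identity). The variant U1 genes Rnu1b1 and Rnu1b2 (95.8% identity) and Rnu1b6 (95.2%) had no cluster. The hit genes lay on chromosomes 11 (2 genes), 12 (6 genes between 54710308 and 54738622), 18 (2 genes) and 19 (1 gene). Both on chromosome 11 lie inside Tex14, a gene of germ cell bridges. On chromosome 18, Gm24924 lies inside Ss18 and Gm26244 inside Rock1, both protein-coding genes. The 20 clusters of the 11 hit genes carried 1104 reads, but the 3 distinct sequences carried 186. Whether the same reads were listed at each copy was not tested, as the list names no reads.

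In U1 the opposite strand had more reads at each of the 9 genes with both strands. At Rnu1a1 the 82 reads on the opposite strand and 23 on the strand of the gene made 78.1% opposite (Wilson 95% interval 69.3 to 84.9), a ratio of 3.57. At Gm22317 the 81 and 23 reads made 77.9% (interval 69.0 to 84.8). These intervals, like all those below, cover counting error only. Those of read shares take each read as a separate molecule, which reads copied by PCR need not be. Those of cluster shares take each cluster as independent. The 2 clusters of Rnu1a1 shared bases 42 to 105, which is 77.1% of the cluster on the strand of the gene. The same counts recur at the 9 genes, which are therefore not 9 independent measurements.

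**Figure D1:**
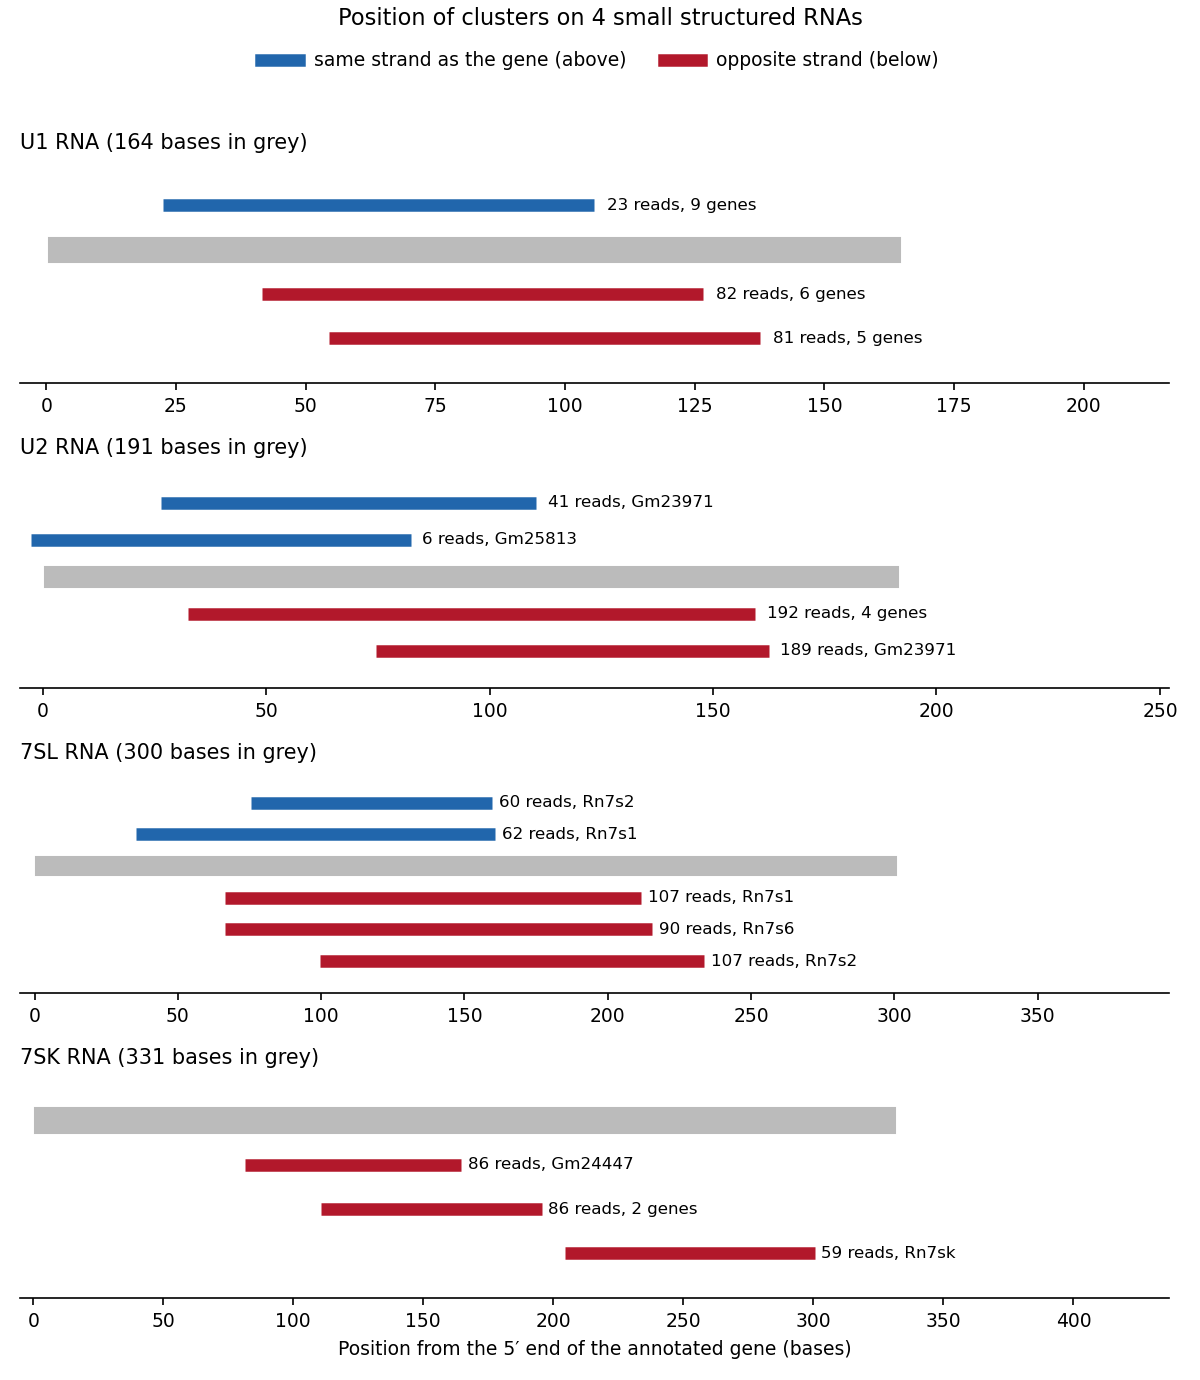
Clusters along U1, U2, 7SL and 7SK. The x axis is the position in bases from the 5′ end of each gene, the grey bar is the RNA, blue bars above it are clusters on the strand of the gene and red bars below are clusters on the opposite strand, each with its reads and the gene or number of genes that list it. Positions are those of each gene itself: Rn7s6 is 291 bases long, and Gm26315 and Gm24447 of the 7SK panel are 321 and 338. U1 has 1 span above and 2 below, with 23, 82 and 81 reads, and 7SK has spans below alone.

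U2 is shown with 3 clusters of 2 genes that make the same 191-base RNA, Rnu2-10 (chr11:101658238-101658428, plus strand) and Gm23971 (chr11:101645740-101645930, minus strand). Capitals again mark the bases under a cluster.
Gm23971, cluster on the strand of the gene: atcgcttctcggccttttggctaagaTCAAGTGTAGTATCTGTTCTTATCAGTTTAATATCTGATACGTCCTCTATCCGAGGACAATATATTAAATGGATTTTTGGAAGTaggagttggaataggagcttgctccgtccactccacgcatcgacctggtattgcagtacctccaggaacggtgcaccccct
Gm23971, cluster on the opposite strand: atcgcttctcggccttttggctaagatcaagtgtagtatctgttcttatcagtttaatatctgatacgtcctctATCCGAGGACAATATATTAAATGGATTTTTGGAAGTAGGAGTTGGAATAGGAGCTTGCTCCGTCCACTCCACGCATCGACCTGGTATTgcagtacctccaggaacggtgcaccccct
Rnu2-10, cluster on the opposite strand: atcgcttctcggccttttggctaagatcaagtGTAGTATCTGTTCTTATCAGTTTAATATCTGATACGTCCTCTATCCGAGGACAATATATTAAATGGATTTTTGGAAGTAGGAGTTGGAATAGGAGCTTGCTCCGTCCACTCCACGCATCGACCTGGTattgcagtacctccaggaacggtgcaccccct

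U2 had the highest counts of the set. At Rnu2-10, Gm23849, Gm24950 and Gm26316, all on the plus strand of the genome, 1 cluster on the opposite strand spanned bases 33 to 159 with 192 reads, more than 93.7% of nuclear clusters of the list. At Gm23971, on the minus strand, the opposite cluster spanned bases 75 to 162 with 189 reads, and a cluster on the strand of the gene spanned bases 27 to 110 with 41 reads. The transcripts of Rnu2-10, Gm23849 and Gm23971 did not differ at any base. The stretch GTAGTA (bases 33 to 38), part of the region that pairs with the branch site, lay in the 192-read cluster and in the 41-read cluster of Gm23971 and not in its 189-read cluster. It occurred on either strand in 1.49% of all clusters. The Sm site (ATTTNTGG, bases 99 to 106) lay in the span of all 3. Clusters on the opposite strand list the complement of the bases they span.

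The sequence of the 41-read cluster is held by 5 genes and was listed at 1 of them. At Gm23971 the opposite strand thus had 82.2% of 230 reads (interval 76.7 to 86.6), a ratio of 4.61, and at the other 4 genes with that sequence the opposite strand was the only one listed. These 5 genes form an array on chromosome 11 between 101604850 and 101658428. The sixth U2 gene, Gm25813 on chromosome 8 (52336915 to 52337105), differed from Rnu2-10 at 2 bases. It had 1 cluster of 6 reads on its own strand, from 3 bases before the gene to base 82, the lowest count of the set. It was the only gene listed on its own strand alone, and that sequence was listed at no other locus. Of 25 annotated genes alike to U2, 6 had a cluster. The 7 clusters carried 1004 reads, 95.3% of them opposite, and the 4 distinct sequences carried 428, of which 381 were opposite.

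7SL clusters lay in the middle of the RNA. Rn7s1 (chr12:69159295-69159594, plus strand) and Rn7s2 (69361182 to 69361481 of the same chromosome, minus strand) make equal RNAs of 300 bases. On the strand of the gene Rn7s1 had 62 reads over bases 36 to 160 and Rn7s2 had 60 reads over bases 76 to 159. On the opposite strand both had 107 reads, over bases 67 to 211 in Rn7s1 and bases 100 to 233 in Rn7s2. The ends of the clusters thus differed between genes of equal RNA while the counts were equal or 2 apart. No cluster of these 2 genes held bases before 36 or after 233. The opposite strand had 63.3% of reads at Rn7s1 (interval 55.8 to 70.2) and 64.1% at Rn7s2 (interval 56.6 to 71.0). The interval of Rn7s1 overlapped that of Rnu1a1 and lay below that of Gm23971, a difference between RNAs that was not tested.

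Rn7s6, a copy of 7SL on chromosome 6 (69516339 to 69516629) with 45 base differences from Rn7s1, had 90 reads on the opposite strand over bases 67 to 215 and none listed on its own strand. Of the 10 genes alike to 7SL, these 3 had a cluster, with 426 reads in all, 304 of them opposite (71.4%). No 7SL cluster sequence was listed at a second locus. Yet all 3 genes hold the 84-base sequence of Rn7s2 and the reverse complement of the 145-base sequence of Rn7s1. No cluster outside these genes shared a 30-base word with a 7SL cluster. Rn7s2 overlaps Gm47305, annotated as a miRNA gene, which therefore also counted as hit.

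7SK was listed on the opposite strand alone. The sequences below are the clusters themselves, 5′ to 3′ on the strand of the cluster, from Rn7sk (chr9:78175303-78175633, minus strand) and from Gm24447, a partial copy on chromosome 15 (93234363 to 93234700). Capitals mark the 54 bases that the first and the last share.
Rn7sk, chr9:78175439-78175523, plus strand: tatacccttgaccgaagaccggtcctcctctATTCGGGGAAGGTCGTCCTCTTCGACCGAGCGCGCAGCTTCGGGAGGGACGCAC
Rn7sk, chr9:78175334-78175429, plus strand: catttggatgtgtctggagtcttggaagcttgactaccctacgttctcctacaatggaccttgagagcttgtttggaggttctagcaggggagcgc
Gm24447, chr15:93234444-93234526, minus strand: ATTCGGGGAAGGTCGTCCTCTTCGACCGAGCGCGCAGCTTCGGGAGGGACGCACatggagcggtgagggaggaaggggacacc

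Rn7sk, the 331-base gene itself, had 86 reads over bases 111 to 195 and 59 reads over bases 205 to 300. Gm26315 on chromosome 2 (7076094 to 7076414), inside Celf2, a gene for an RNA-binding protein, listed the first of these sequences again with 86 reads. Gm24447 had 86 reads over bases 82 to 164, and Rn7sk also holds the reverse complement of this sequence, at the same bases. The 3 distinct sequences thus gave 231 reads, and the 4 clusters together 317. With 0 of 145 reads at Rn7sk on the strand of the gene, 100% were opposite (interval 97.4 to 100). Of 65 annotated genes alike to 7SK, the 3 with a cluster were those that hold the reverse complement of a listed sequence exactly.

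The 2 genes in no group had few reads. Gm27694 (chromosome 19, 5799000 to 5799085, minus strand) lies inside Malat1, a long nuclear RNA, on the same strand. Its cluster had 11 reads on the opposite strand and reached past the 3′ end of the small gene. The Malat1 transcript holds the reverse complement of the cluster sequence in full, so the cluster lay on the strand opposite to Malat1 too. Gm23853 on chromosome 8 (111879304 to 111879407) had 8 reads on the opposite strand in a cluster that reached past its 5′ end.

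**Figure D2:**
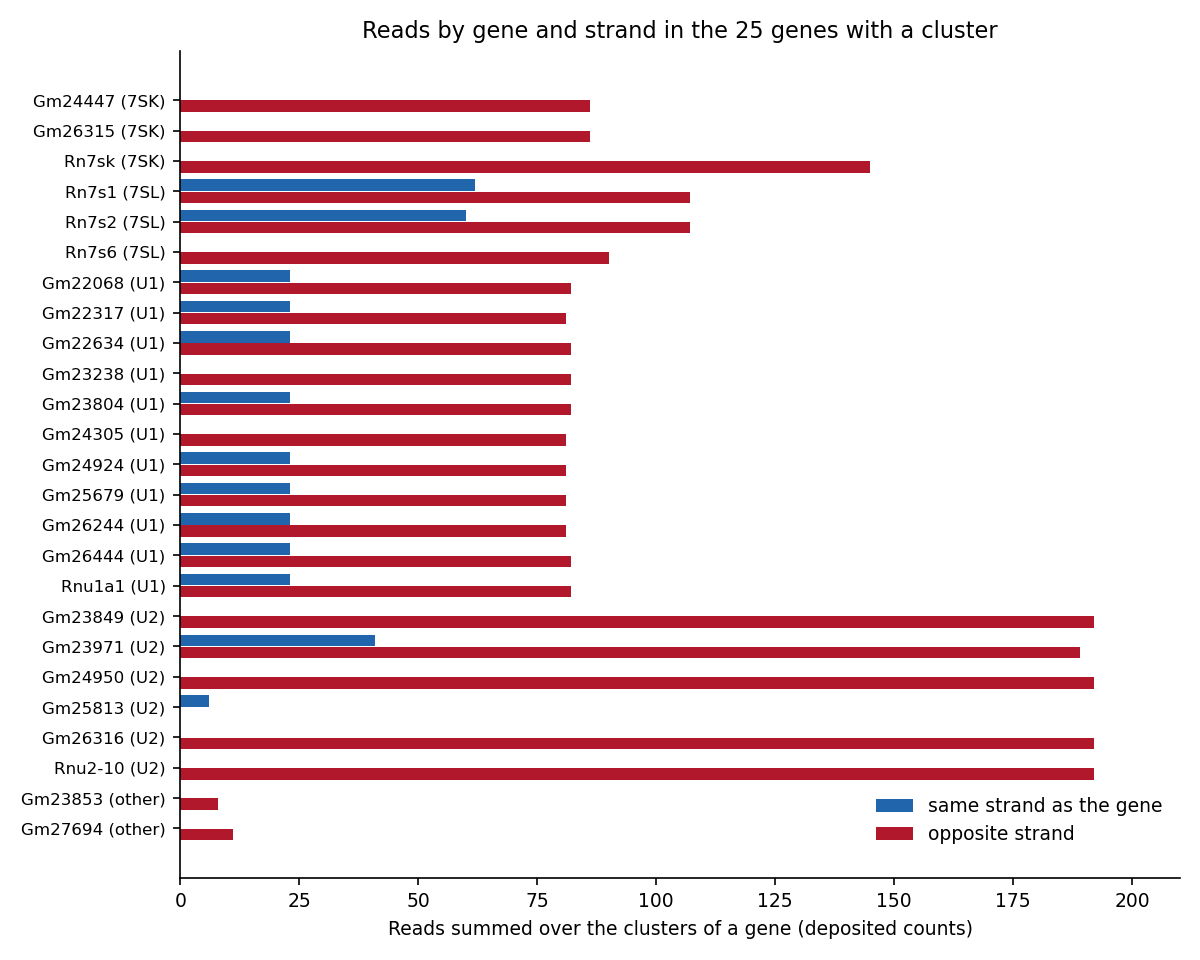
Reads by gene and strand. Bars on the x axis give the deposited reads summed over the clusters of each of the 25 genes, blue for the strand of the gene and red for the opposite strand, with the RNA group in parentheses. The red bar is longer in 24 genes, and Gm25813 has a blue bar alone.

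Strand was measured over the whole set because the rule did not use it. Of the 25 genes, 12 had clusters on both strands, 12 on the opposite strand alone and 1 on its own strand alone. In each of the 12 with both, the opposite strand had more reads. Of these 12, 9 are U1 genes that list the same 23 reads on their own strand, so the 12 are not independent. By clusters, 25 of 38 were opposite (65.8%, interval 49.9 to 78.8), against 1140 of 2172 (52.5%) other nuclear clusters in genes. That difference did not pass the threshold of 0.05 (odds ratio 1.74, Fisher exact p = 0.139 in a two-sided test, and 0.139 after adjustment over 3 tests). The test takes copies as independent, although the 38 clusters come down to 17 distinct sequences. Against clusters in exons of nuclear protein-coding genes, a comparison chosen after the data were seen, the shares were 65.8% and 65.9% (276 of 419, interval 61.2 to 70.2; odds ratio 0.996, Fisher exact adjusted p = 1.00). Without U1, 14 of 18 clusters were opposite (77.8%, odds ratio 3.17, Fisher exact adjusted p = 0.0517). By reads, 2494 of 2870 were opposite (86.9%), and 85.1% of 1290 with each identical sequence counted once. The share of reads was not computed for other nuclear clusters or for exons, so these values have no background.

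Copies of a cluster sequence were more frequent here than elsewhere with U1 counted, and about as frequent without it. Of the 38 clusters, 26 (68.4%, interval 52.5 to 80.9) had a sequence listed at more than 1 locus, against 1429 of 4657 other nuclear clusters (30.7%). The odds ratio was 4.89 (Fisher exact, two-sided, p = 8.42e-06 after adjustment). The 26 were 20 of U1, 4 of U2 and 2 of 7SK. Without U1 the share was 33.3% (odds ratio 1.13, Fisher exact adjusted p = 0.801), and the test takes copies as independent. Each copy of a sequence entered as a separate cluster, so the p-value of the whole set does not measure a difference between sequences. By distinct sequence the set came down to 17, of which 12 were listed once, against 3228 of 3485 among other nuclear clusters. That difference was not tested. Of the 25 genes, 22 hold a listed sequence or its reverse complement in full in their annotated RNA. No other annotated gene of these 4 types does. The clusters of the other 3 of the 25 genes reached past the gene. Nowhere else in the list was there a cluster that shared a 30-base word with any of the 38.

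Clusters in this set had more reads than most. Their median was 81.0 reads (quartiles 23 to 86, range 6 to 192), against 14.0 (quartiles 9 to 24) in other nuclear clusters and 20 (quartiles 10 to 74) in those of them listed at more than 1 locus. On the opposite strand the median was 82.0 (range 8 to 192), and on the strand of the gene 23.0 (range 6 to 62). Counts of copies repeat each other, so no test was made. With identical sequences counted once the median was 81.0 in the set and 14.0 elsewhere. None of the 38 reached the counts of the top of the list, where 1 cluster had 43217.

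**Figure D3:**
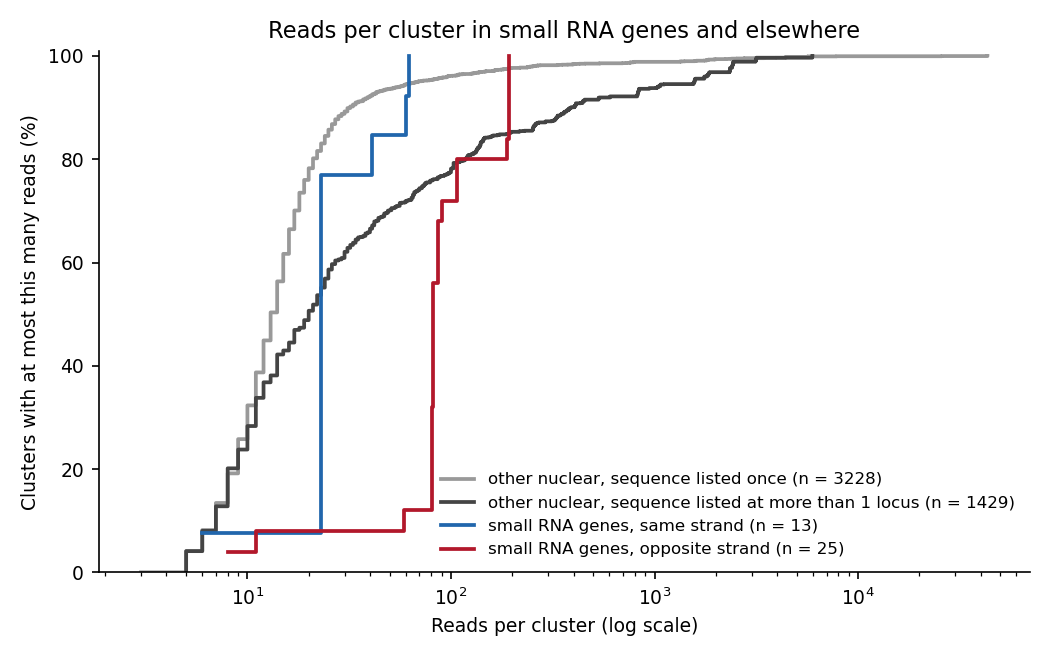
Reads per cluster. The x axis is the reads of a cluster on a log scale and the y axis the percent of clusters with at most that many, for clusters of small RNA genes by strand (blue, red) and for other nuclear clusters by whether their sequence is listed once (light grey) or more often (dark grey). The red line rises mostly between 81 and 192 reads, and most of the blue line rises at 23, the count of the 9 U1 copies.

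The ends and make-up of the clusters differed from the rest in several measures, of which only the share beginning with AC was tested. Of the 38, 23 began with AC (60.5%, interval 44.7 to 74.4), against 3687 of 4657 other nuclear clusters (79.2%). The odds ratio was 0.403 (Fisher exact, two-sided, p = 0.0126 after adjustment). The test takes copies as independent. With each identical sequence counted once, 8 of 17 began with AC, against 2963 of 3485 others (odds ratio 0.157, Fisher exact adjusted p = 9.24e-04). The call was lost with clusters of at least the median reads of the list (21 of 35, against 69.3% of others, Fisher exact adjusted p = 0.269) and without misc_RNA genes, the class of 7SL and 7SK (67.9%, adjusted p = 0.240). Among 36 clusters with known bases upstream, 0 had GT just before the start (Wilson upper limit 9.64%), nor had any of the 22 among them that began with AC. Of 502 other nuclear clusters inside an annotated transcript, 347 (69.1%, interval 64.9 to 73.0) had GT there. The U1, 7SL and 7SK RNAs of Rnu1a1, Rn7s1 and Rn7sk hold no GTAC, and Rnu2-10 holds 1, at base 166, outside its cluster. The same 4 letters, equal on both strands, occur in 0.693% of all clusters of the list. A cluster beginning with AC inside the RNA of Rnu1a1, Rn7s1 or Rn7sk thus could not have GT before it. For such clusters the outcome was fixed by the sequence, and nothing is read from it. The bases upstream were looked at after the data were seen, and the difference was not tested. The 36 clusters come down to 15 distinct sequences, so the Wilson limit takes copies as independent.

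Cluster lengths ran from 83 to 149 bases, and 28 of 38 (73.7%) were 83 to 86 bases long, against 96.1% of other nuclear clusters. The longest were those of 7SL, with 125 to 149 bases in 4 of its 5 clusters, and of U2, with 127 bases in 4 of 7. T, the letter at which 4-thiouridine is built in, made up a median of 23.9% of bases (range 13.3 to 40.7), against 31.4% in other nuclear clusters. G and C together made up 54.1%, against 41.7%. On the opposite strand the T of the listed sequence stands for A in the annotated RNA. Changes from T to C, the mark of crosslinking in PAR-CLIP, are not given in the list.

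**Figure D4:**
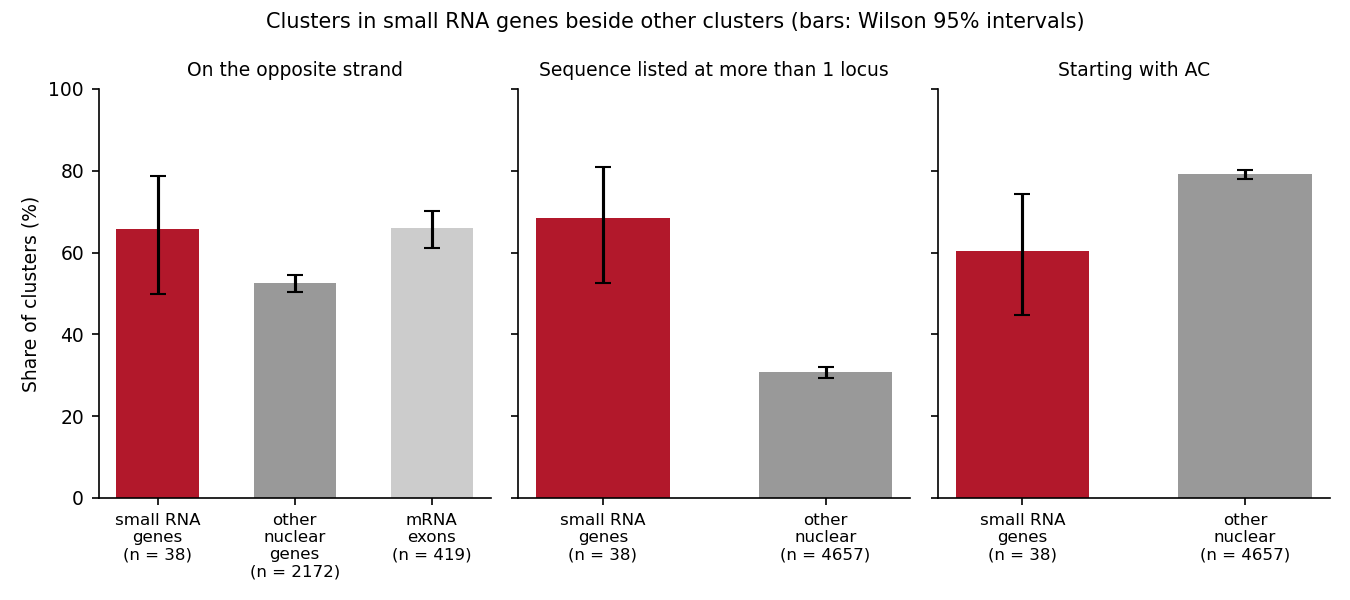
Shares of clusters with 3 properties. Bars on the y axis are the percent of clusters, red for small RNA genes and grey for other clusters, with Wilson 95% intervals as error bars and n under each bar. The red bar is higher than the grey one for sequences listed at more than 1 locus (68.4% and 30.7%) and lower for starts with AC (60.5% and 79.2%), and for the opposite strand its interval reaches the grey bar of other nuclear genes (65.8% and 52.5%). The light grey bar is the comparison with mRNA exons that was chosen after the data were seen (65.9%).

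The proteins that bind these RNAs were looked up by the same midpoint rule, since a list of RNA regions can also hold their mRNAs. Of 36 annotated genes for proteins of the signal recognition particle, of U1, of the Sm ring, of 7SK, of both snoRNA classes, and of Y and vault particles, 1 had a cluster. This was Srp68, a subunit of the signal recognition particle, with 9 reads on its own strand in an intron. The background over all nuclear genes is the 3.50% given above, and over protein-coding genes it is 6.84% (1506 of 22015). Rmrp and Rpph1, the RNAs of RNase MRP and RNase P, and the telomerase RNA Terc had none, nor did the 22 annotated ribozyme genes. Of 2207 miRNA genes, 2 had a cluster (0.0906%), Gm47305 in Rn7s2 and Gm47301.

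Markers of the cell type were checked in the same way, although clusters do not measure expression. Of 19 neural stem cell markers, 3 had a cluster: the growth factor receptor gene Egfr (18 reads, opposite strand, exon), the RNA-binding protein gene Msi2 (26 reads, own strand, intron) and the glutamate transporter gene Slc1a3 (15 reads, own strand, exon). Nes, Sox2 and Pax6 were among the markers with none. Of 5 neuron markers, Map2 had 2 clusters, with 47 and 25 reads on the opposite strand. The 3 oligodendrocyte and 3 microglia markers had none. Over all annotated nuclear genes the same rule gave 1944 of 55499 (3.50%), and over protein-coding genes 1506 of 22015 (6.84%).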

How the data were processed

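For the series of 12 libraries the authors deposited 1 list of clusters, with position, strand, sequence and read count. The list is named for Smchd1GFP. Per the file headers the values are read counts per cluster, not normalized and with no column per sample. Per the submitters' processing notes, the tools included TopHat2 2.1.0 and bcl2fastq, and the build was mm10. The sources used here do not name the cluster caller, its thresholds or the libraries that entered. Depth per library is therefore unknown.

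Positions were read as 1-based and set against GENCODE M21 on GRCm38, the assembly of mm10. All 35 member clusters that lie inside an annotated RNA had its sequence on the stated strand. Genes without a telling name joined an RNA group by blastn (BLAST+ 2.17.0) with at least 70% of their length aligned at 75% identity or more, and snoRNA and scaRNA genes by their class. By the rule for naming, every gene with a cluster was placed in its group and named, and Rnu1b1, Rnu1b2 and Rnu1b6 were added after the values were seen. Families link clusters by a shared 30-base word on either strand. Fisher exact tests (SciPy 1.17.1, Python 3.11.15) were two-sided, adjusted by Benjamini-Hochberg over 3 tests, and left out 133 clusters in genes of both strands where strand was compared. The assignment, the families and the test were tested on simulated data. The test was simulated with independent clusters, so that check does not cover the copies among the members. Members and lists were chosen with earlier results of these data known. The sequences of 7SL are not reported here.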

Additional observations from a re-analysis of the deposited data

How the results depend on the processing

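The list has no value per library, so leaving out a library was not possible. No paired analysis was possible because the columns carry no replicate number. Of 64 alternative values, 46 kept their direction and their side of the threshold or moved by less than the limit set for them, which was 1.5 times for counts, sums and medians and the Wilson 95% interval for the share of reads. Any overlap of 1 base gave the same 38 clusters as the midpoint. Counted on the strand of the gene alone, 13 genes and 13 clusters with 376 reads and a median of 23.0 were left, and 76.9% began with AC (two-sided Fisher exact test, adjusted p = 0.741). Without U1, 14 genes and 18 clusters with 1766 reads were left, 90.4% of reads and 77.8% of clusters were opposite (odds ratio 3.17, Fisher exact adjusted p = 0.0517), and 33.3% of clusters had a sequence listed at more than 1 locus (Fisher exact adjusted p = 0.801). With each identical sequence counted once, 13 genes and 17 clusters with 1290 reads were left, 85.1% of them opposite. The lower share of starts with AC was not called with clusters of at least the median reads (60%, Fisher exact adjusted p = 0.269) or without misc_RNA genes (67.9%, adjusted p = 0.240). In the first of these the share in other clusters was 69.3% in place of 79.2%, and in the second it was 79.2%. With each identical sequence once, the odds ratio for AC was 0.157 in place of 0.403. With each family counted once, by its cluster with the most reads, 100% of 7 clusters were opposite (Fisher exact adjusted p = 0.0278). Keeping the cluster with the most reads favours the opposite strand by construction. Compared with exons of nuclear protein-coding genes, an alternative chosen after the data were seen, the 65.8% gave an odds ratio of 0.996 (Fisher exact adjusted p = 1.00) in place of 1.74.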
